A study of Equus caballus with 19 samples.

Results

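Transforming growth factor beta (TGF-β) is made as a latent complex, which is held in the extracellular matrix by latent TGF-β binding proteins. Once released, the ligand brings together a type II and a type I receptor, and the type I receptor phosphorylates SMAD2 and SMAD3, which enter the nucleus with SMAD4 and act on matrix genes. In tendon, the pathway is known for its part in the formation of the tissue, in the expression of the tendon transcription factor scleraxis and in scarring after injury. The 10 genes described here were chosen by name: the ligands TGFB1, TGFB2 and TGFB3, the receptors TGFBR1, TGFBR2 and TGFBR3, the latent binding proteins LTBP1 and LTBP2, the signal transducer SMAD3 and the inhibitor SMAD7. They are 10 of the 29196 gene names in each of the deposited tables, and all 10 passed the filter on low values in both batches.

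The study asked how inflammation alters the transcriptome of adult equine tenocytes, the resident cells of tendon, and whether blocking the receptor of interleukin-1 (IL-1) reverses the change. Cells from the superficial digital flexor tendon, labelled WT, were set in gels of bovine type I collagen and RNA was sequenced at day 14. Lines 1 to 5 form the first batch, with a control and an IL-1β (1 nM) library for each line (n = 5 per group). Lines 6 to 8 form the second batch, with a control library, an IL-1β (1 nM) library and a library of IL-1β (1 nM) plus IL1Ra (100 ng/ml) for each line (n = 3 per group). IL1Ra is the natural antagonist of the IL-1 receptor. All gels, controls included, were kept in medium with 10% fetal bovine serum and without other added cytokines. Every line was a separate tenocyte line, and the replicate is the line.

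Values are normalised counts, that is gene counts scaled by the authors to make the libraries of a batch comparable, and their sums per library were 43.4 to 49.2 M (M for 1e+06 counts) in the first batch and 24.96 to 34.6 M in the second. The batches were normalised apart, so levels were compared only within a batch. Genes were not compared with each other in level, because it is not known whether the scaling took transcript lengths into account. Of the tenocyte markers, TNMD was at 0 in every library of the first batch and under 10 in the second, so this marker of differentiated tenocytes was absent, and 7 of the 9 markers with a row exceeded 10 in every control library of the first batch. Of the 8 leukocyte markers, PTPRC, CD3E, CD79A, CSF1R and CD163 were under 10 in every library, and CD68, CD14 and ITGAM were not. CD68 held 56.4 to 173 normalised counts in control and 296 to 1359 with IL-1β in the first batch, higher in 5 of 5 lines, CD14 was at 0 in some lines and reached 2811 in line 5, and ITGAM reached 55.3. The control libraries of the second batch stood apart from each other: the median of 25 TGF-β target genes lay 0.88 above the mean of the 3 controls on the log2 scale in line 6 and at -0.85 in line 8, against 0.014 and -0.0085 for the median of all genes. In bulk libraries, fewer cells of a type and less RNA per cell cannot be told apart.

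With IL-1β, the latent binding protein LTBP2 and the ligand TGFB1 fell in the first batch, and the other 8 members did not pass the test. A gene was called differentially expressed (DE) when adjusted p was under 0.05 and the log2-fold change reached 1 in size, by limma on log2(normalised count + 1). Of the 10 members, 2 were DE and lower and 0 were DE and higher, where 7.90% of the 14719 genes tested were DE and lower and 4.91% were DE and higher. The median log2-fold change of the 10 members was -0.21, against -0.0034 for all genes tested. How many of all genes had groups without overlap, or the same direction in every line, was not counted in either batch. Where such traits are given for a gene, they describe its values and have no background share.

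TGFB1 encodes the TGF-β isoform best known for fibrosis and matrix production. Its normalised counts in the control libraries of lines 1 to 5 were 5652, 4477, 2053, 2967 and 4333, and with IL-1β they were 1908, 1628, 1948, 1862 and 1325. The IL-1β libraries sat close together below every control, and line 3 began low and hardly moved. The means were 3897 ± 1403 in control and 1734 ± 260.2 with IL-1β (SD, n = 5), and the log2-fold change was -1.10 (SE 0.25, adjusted p = 0.00853 by limma), lower in 5 of 5 lines. Without line 1 the log2-fold change of TGFB1 was -0.98 (adjusted p = 0.0266), under the fold threshold, and without line 5 it was -0.94 (adjusted p = 0.0574).

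TGFB2 encodes the isoform that is needed with TGFB3 for tendon formation in the embryo. Its control libraries held 723, 1066, 551, 961 and 1071 normalised counts and its IL-1β libraries 2157, 1637, 624, 2213 and 1749.6. Each line was higher with IL-1β, but the IL-1β library of line 3 lay among the controls. The log2-fold change of TGFB2 was 0.86 (SE 0.34, 95% interval 0.11 to 1.61, adjusted p = 0.0850), and it was 1.03 without line 3 (adjusted p = 0.00365), which met both thresholds. Blocked by tenocyte line, the adjusted p of TGFB2 was 0.0137, still under the fold threshold.

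TGFB3 encodes the third isoform. It held 8421, 6529.6, 16689, 23977 and 19420.4 normalised counts in control and 4372, 12798, 17985, 12443 and 6748 with IL-1β. The lines went in both directions, with 2 higher and 3 lower, and the groups overlapped widely. The log2-fold change was -0.47 (SE 0.45, 95% interval -1.46 to 0.53, adjusted p = 0.478). Its controls were the most spread of the members, with an SD of 0.81 on the log2 scale, above that of 85.3% of genes tested.

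**Figure D1:**
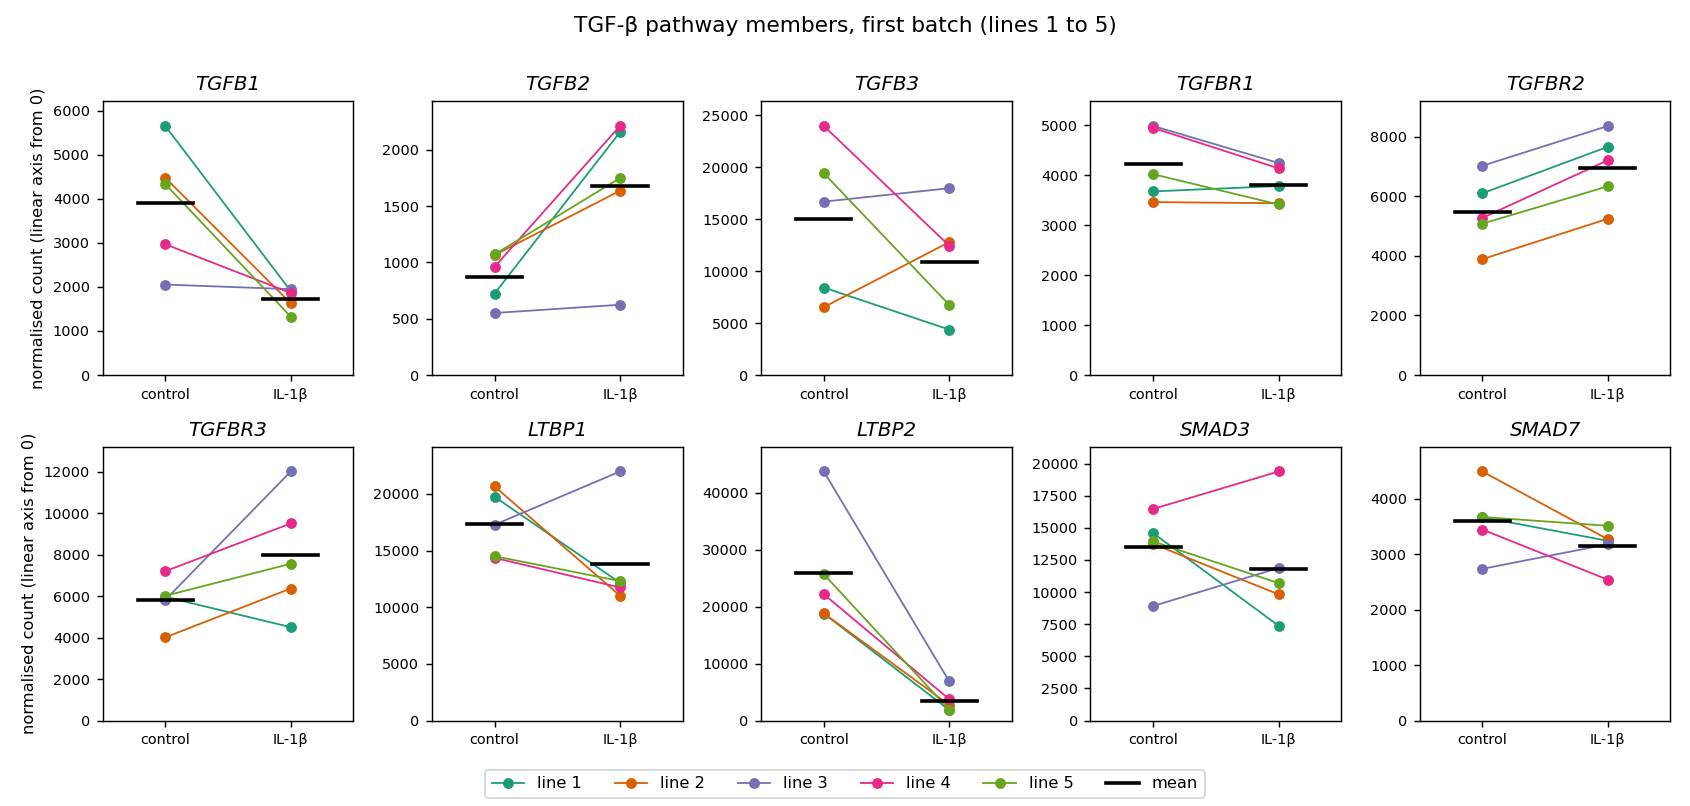
Normalised counts (vertical axis, linear from 0) of the 10 members in control and IL-1β libraries of the first batch, each point a library, each coloured line a tenocyte line and each black bar the mean of 5. LTBP2 and TGFB1 do not overlap between the groups, TGFB2 and TGFBR2 are higher with IL-1β in 5 of 5 lines, and TGFB3 and SMAD3 go in both directions.

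Of the latent binding proteins, LTBP2 was DE in the first batch and LTBP1 was not. LTBP2, a matrix protein of the elastic fibre microfibrils that belongs to this family but is known not to bind latent TGF-β itself, held 18778, 18799, 43691, 22151 and 25664 normalised counts in control and 1849.9, 2744, 6869, 3746 and 1880.2 with IL-1β. Every IL-1β library lay far below every control, and line 3 was highest in both groups. The means were 25817 ± 10389 and 3418 ± 2080 (SD, n = 5), and the log2-fold change was -3.02 (SE 0.37, 95% interval -3.84 to -2.21, adjusted p = 3.35e-04), lower in 5 of 5 lines. Its absolute change exceeded that of 97.2% of the genes tested, and within lines it ran from -2.56 to -3.77.

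LTBP1, which binds the latent complex covalently and anchors it in the matrix, held 19745, 20668, 17278, 14358 and 14504 normalised counts in control and 12163, 11015, 21978, 11743 and 12310.3 with IL-1β. It was lower in 4 lines and higher in line 3, whose IL-1β library was the highest of all 10. The log2-fold change was -0.36 (SE 0.19, 95% interval -0.79 to 0.07, adjusted p = 0.200). A change past the fold threshold lay outside that interval.

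All 3 receptors stayed under the fold threshold in the first batch. TGFBR1, the type I receptor kinase that phosphorylates SMAD2 and SMAD3, ranged from 3462 to 4987 normalised counts in control and from 3415 to 4245 with IL-1β, and its log2-fold change was -0.14 (SE 0.12, 95% interval -0.41 to 0.13). TGFBR2, the type II receptor that binds the ligand first, held 6096, 3887, 7019.8, 5272 and 5077 normalised counts in control and 7656, 5241, 8355, 7205 and 6330.1 with IL-1β. The groups of TGFBR2 overlapped, but each line was higher with IL-1β by a like amount, 0.25 to 0.45 on the log2 scale. Its log2-fold change was 0.36 (SE 0.17, adjusted p = 0.146), and with the line as a block adjusted p was 0.00392 (SE 0.058), below the fold threshold of 1 in both fits. TGFBR3, the co-receptor betaglycan that presents TGF-β2 to the type II receptor, ranged from 4015 to 7208 normalised counts in control and from 4508 to 12021 with IL-1β, higher in 4 lines and lower in line 1. Its log2-fold change was 0.41 (SE 0.25, 95% interval -0.14 to 0.96, adjusted p = 0.251).

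Downstream of the receptors, SMAD3, which carries the signal to the nucleus, held 14588, 13745, 8912, 16464 and 13933 normalised counts in control and 7377, 9820.0, 11869, 19379 and 10698 with IL-1β. It was lower in lines 1, 2 and 5 and higher in lines 3 and 4, and the log2-fold change was -0.24 (SE 0.24, 95% interval -0.78 to 0.30). SMAD7, the inhibitory SMAD that is itself induced by TGF-β and blocks the type I receptor, ranged from 2735 to 4490.5 normalised counts in control and from 2539 to 3511 with IL-1β. Its log2-fold change was -0.18 (SE 0.13, 95% interval -0.48 to 0.11), with 4 lines lower and line 3 higher.

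The 3 lines of the second batch were compared by the same fit, with all 9 libraries sharing one estimate of the spread. With IL-1β against control, 0 of the 10 members were DE (2 had an unadjusted p under 0.05), where 0.341% of the 16705 genes tested were DE, and 1907 of all genes had an unadjusted p under 0.05. Blocked by tenocyte line, TGFB2 was DE and higher and LTBP2 was DE and lower, where 2.59% of genes were DE and higher and 2.59% were DE and lower. In the first batch the same block left TGFB1 and LTBP2 as the 2 members that were DE and lower, where 10.2% of genes were. The median log2-fold change of the members in the second batch was -0.18, against -0.0084 for all genes tested.

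TGFB2 held 674, 281 and 318 normalised counts in the controls of lines 6 to 8, 1453, 942 and 1044 with IL-1β, and 831, 252 and 498 with IL-1β plus IL1Ra. All 3 IL-1β libraries lay above every control and above every library with IL1Ra. The means were 425 ± 217 in control and 1146 ± 271 with IL-1β (SD, n = 3), and the log2-fold change was 1.52 (SE 0.48, adjusted p = 0.270; with the block SE 0.24, adjusted p = 0.0181). Between IL-1β plus IL1Ra and IL-1β alone it was -1.26 (SE 0.48, adjusted p = 1.00, unadjusted p = 0.0298 by limma), lower in 3 of 3 lines, and against control it was 0.26 (SE 0.48, 95% interval -0.83 to 1.36). With the block, the 95% interval of TGFB2 was -1.82 to -0.69 against IL-1β alone (adjusted p = 0.204 by limma) and -0.30 to 0.83 against control.

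LTBP2 held 24136, 7221 and 4915 normalised counts in control, 4772, 749 and 2633 with IL-1β, and 12982, 3776 and 2258 with both agents. The lines differed widely in control, with line 6 far above the others, yet each IL-1β library lay below all 3 controls. The log2-fold change with IL-1β was -2.17 (SE 0.90, adjusted p = 0.413; with the block SE 0.45, adjusted p = 0.0385). With IL1Ra added, LTBP2 was -0.98 against control (SE 0.90, 95% interval -3.05 to 1.08), lower in 3 of 3 lines. Against IL-1β alone it was 1.18 (95% interval -0.88 to 3.25), higher in lines 6 and 7 and lower in line 8. With the block, the 95% interval of LTBP2 was 0.12 to 2.25 against IL-1β alone (adjusted p = 0.534 by limma) and -2.05 to 0.08 against control.

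TGFB1, which was DE in the first batch, held 777, 1169.6 and 772 normalised counts in the controls of the second, 799.8, 779 and 756 with IL-1β, and 791, 265 and 495 with both agents. Only line 7 was apart in control, and the IL-1β libraries lay within a narrow range that the other controls shared. The log2-fold change with IL-1β was -0.19 (SE 0.37, 95% interval -1.04 to 0.66). With IL1Ra added it was -0.92 against control (SE 0.37, adjusted p = 0.834), with line 6 at the control level and line 7 at -2.14.

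**Figure D2:**
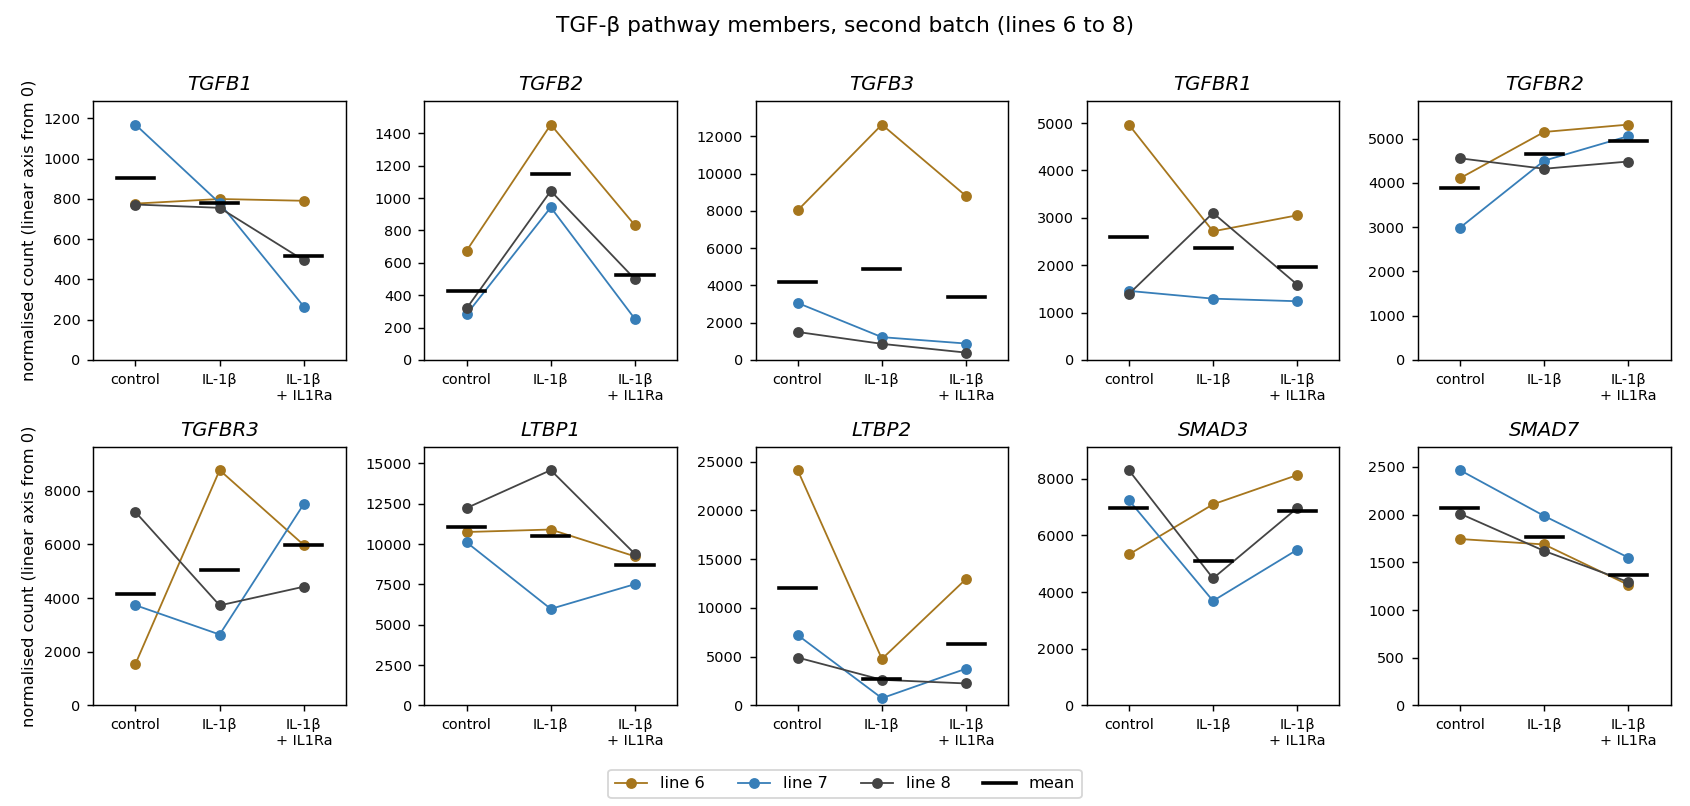
Normalised counts (vertical axis, linear from 0) of the 10 members in the 3 conditions of the second batch, each point a library, each coloured line a tenocyte line and each black bar the mean of 3. TGFB2 peaks in the IL-1β libraries of all 3 lines, SMAD7 is lowest with both agents in all 3, and line 6 is the lowest for TGFBR3 in control and the highest with IL-1β.

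SMAD7 held 1743, 2465 and 2009.5 normalised counts in control, 1686, 1985 and 1619 with IL-1β, and 1263, 1549 and 1293 with both agents. Each line was lower at each step in that order, and the libraries with both agents lay below all 6 others. Against control the log2-fold change with both agents was -0.59 (SE 0.18, 95% interval -1.01 to -0.17, unadjusted p = 0.0112 and adjusted p = 0.714 by limma), and against IL-1β alone it was -0.37 (SE 0.18, adjusted p = 1.00).

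For the remaining members the 95% interval held 0 in the comparison of IL-1β with control. TGFB3 held 8025, 3057 and 1501 normalised counts in control, 12627, 1223 and 863 with IL-1β, and 8791, 879.7 and 393 with both agents, so line 6 was above the other lines throughout. TGFBR3 held 1546, 3735 and 7205 in control and 8765, 2642 and 3727 with IL-1β, so line 6 was the lowest in control and the highest with IL-1β. Its log2-fold change was 0.35 (95% interval -1.04 to 1.74), and -0.73 without line 6. TGFBR1 held 4967, 1457 and 1389.9 in control and 2714, 1293 and 3102 with IL-1β, and the log2-fold change was 0.038 (95% interval -1.29 to 1.36) and -0.52 without line 8. TGFBR2 was at 0.28 (95% interval -0.16 to 0.73), LTBP1 at -0.16 (95% interval -0.88 to 0.56) and SMAD3 at -0.48 (95% interval -1.15 to 0.19) on the same log2 scale.

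Adding IL1Ra to IL-1β left 0 of the 10 members DE in either comparison, with and without the block. Against control, 2 members (TGFB1 and SMAD7) had an unadjusted p under 0.05 without the block, where 0.0120% of genes were DE (0.251% with the block) and 948 of all genes had an unadjusted p under 0.05. With the block TGFB3 did too, at -1.20 (unadjusted p = 0.0209, adjusted p = 0.273 by limma). Against IL-1β alone, 1 member (TGFB2) did without the block, where 0% of genes were DE (0.00599% with the block) and 464 of all genes had an unadjusted p under 0.05. With the block LTBP2 (unadjusted p = 0.0335 by limma) and SMAD7 (0.0293) did too. All genes under 0.05 were not counted for the block, so the blocked p-values of the members have no background count beside them. The comparisons share libraries, and the median log2-fold change of the members was -0.30 against control and -0.23 against IL-1β alone. LTBP1 was lower than control with both agents in 3 of 3 lines without overlap, at -0.34 (95% interval -1.06 to 0.38).

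**Figure D3:**
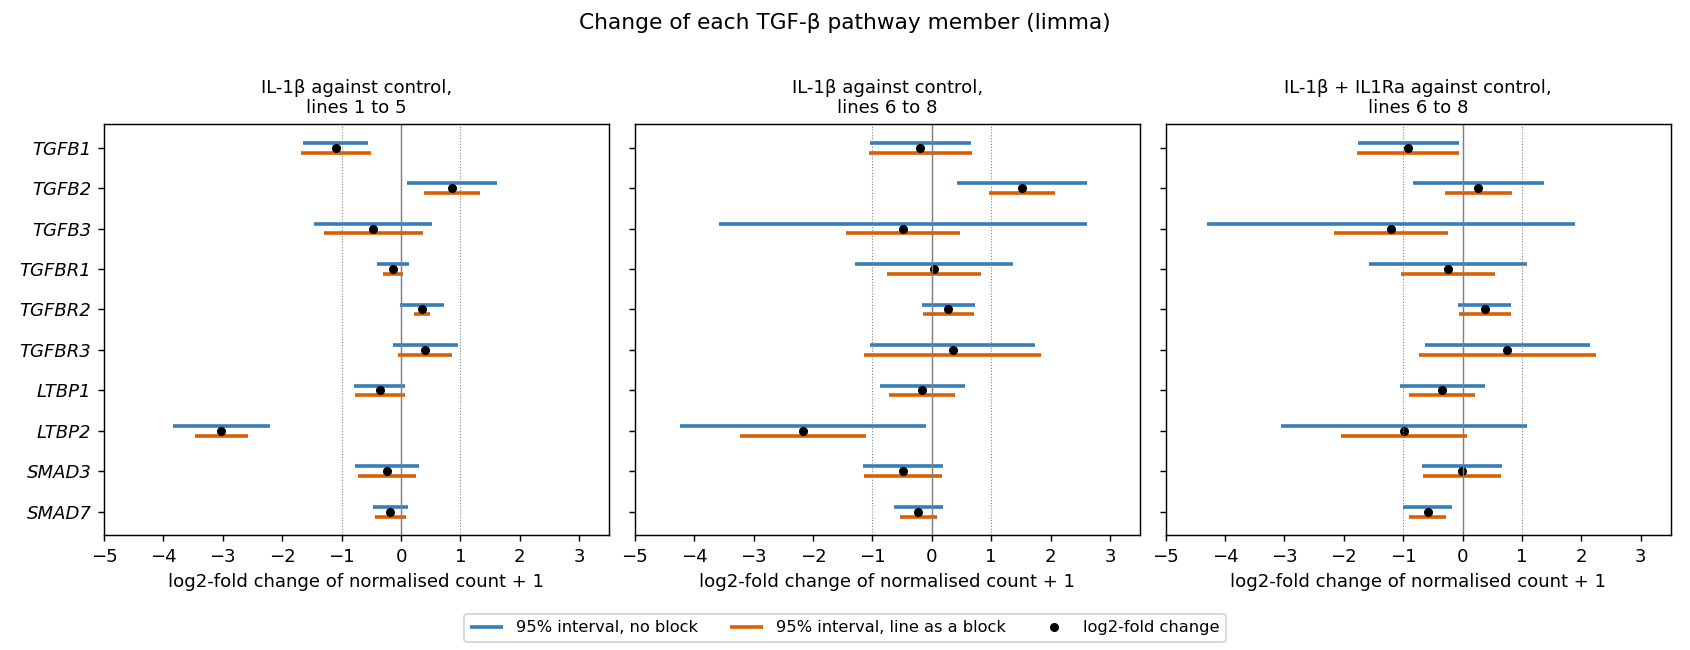
Log2-fold change of normalised count + 1 (horizontal axis, black points) of each member in 3 comparisons, with 95% intervals from limma without a block (blue) and with line as a block (orange); dotted lines mark the fold threshold. LTBP2 and TGFB2 keep their sides of 0 with IL-1β in both batches, and the block narrows the intervals of TGFB2, TGFB3, LTBP2 and TGFBR2 in at least one of them.

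The effect of IL-1β on each member was set side by side in the 8 lines as a ratio within a line, which does not need levels to be shared between batches. LTBP2 was lower in all 8 lines, by a log2 ratio of -0.90 in line 8 to -3.77 in line 5, and TGFB2 was higher in all 8, by 0.18 in line 3 to 1.74 in line 7. TGFB1 was lower in 7 of 8, but in lines 3, 6 and 8 the ratio lay between -0.08 and 0.04. TGFBR2 was higher in 7 of 8, with line 8 at -0.08. The batches were compared by an exact permutation test over lines (two-sided, 5 against 3 lines, 56 arrangements, smallest p 0.0179), with adjustment over the 14478 genes tested in both. TGFB1 differed most by p, with -1.10 in the first and -0.19 in the second batch (exact permutation p = 0.0536, adjusted p = 0.889). TGFB2 (0.86 and 1.52, exact permutation p = 0.125) and LTBP2 (-3.02 and -2.17, exact permutation p = 0.196) followed, and 0 of the 10 members passed. After adjustment over 14478 genes, a member could pass only if very many genes shared the smallest p. The test could therefore hardly call any member, and the count of 0 does not show that the batches were alike. Batch and donor lines cannot be told apart.

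Line 3 had the smallest median ratio in size over the members, though not the smallest for each member. Its median absolute log2 ratio over the 10 members was 0.24, where the other 7 lines had 0.36 to 0.84, while over all genes its median was 0.44, among values of 0.33 to 0.54 in the others. Its control library already held the lowest TGFB1, TGFB2, SMAD3 and SMAD7 and the highest LTBP2, TGFBR1 and TGFBR2 of the first batch. TGFB1, TGFB2, TGFB3 and SMAD7 of line 3 were within 0.22 of control on the log2 scale with IL-1β, whereas its LTBP2 was at -2.67. TGFBR3 of line 3 was at 1.05, SMAD3 at 0.41 and LTBP1 at 0.35.

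**Figure D4:**
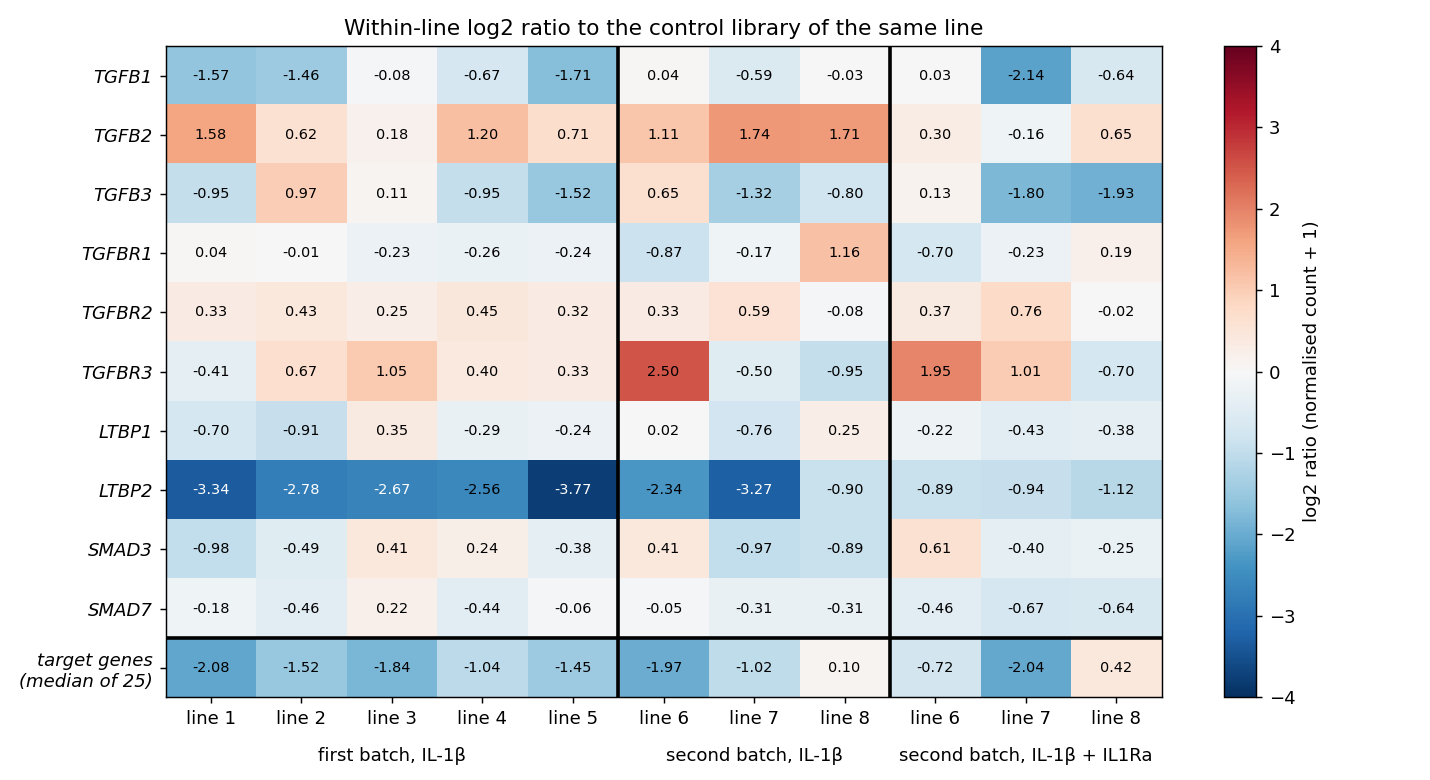
Log2 ratio of normalised count + 1 to the control library of the same line (colour and printed value) for each member (rows) and each line and treatment (columns), with the median ratio of 25 TGF-β target genes in the last row. LTBP2 is below 0 in all 11 columns, TGFB2 is above 0 in all 8 IL-1β columns, and the last row is below 0 except in line 8.

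The balance within pairs of members was followed as the change of their ratio within a line, which needs no comparison of levels between genes. Each value follows from the log2 ratios of its members in the same line, so it restates them and is not separate evidence. The ratio of TGFB2 to TGFB1 was higher with IL-1β in 8 of 8 lines, by 0.26 in line 3 to 3.14 in line 1 on the log2 scale. LTBP2 to LTBP1 was lower in 8 of 8, by -1.15 in line 8 to -3.53 in line 5. TGFBR2 to TGFBR1 was higher in 7 of 8 lines, by 0.29 to 1.20, and was -1.23 in line 8. The ratios to TGFB3 went in both directions with IL-1β. TGFB2 to TGFB3 ran from -0.35 in line 2 to 3.06 in line 7, and TGFB1 to TGFB3 from -2.43 in line 2 to 0.77 in line 8. With IL1Ra added, the TGFB2 to TGFB1 ratio of lines 6 to 8 was lower than with IL-1β alone by -0.79, -0.34 and -0.45, and the LTBP2 to LTBP1 ratio was higher by 1.68, 2.00 and 0.41. Neither ratio was at its control value, with TGFB2 to TGFB1 at 0.28, 1.98 and 1.29 and LTBP2 to LTBP1 at -0.68, -0.51 and -0.74 against the control of the line. In line 7 with both agents, TGFB2 itself was at -0.16 against control. TGFB1 of that line was at -2.14, where it was at -0.59 with IL-1β alone.

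Other genes that set how much TGF-β is released were read from a list of 16 genes of latency and activation, of which 15 passed the filter in the first batch. Of these, 1 was DE and higher and 2 were DE and lower, where 4.91% and 7.90% of all genes were. Blocked by line, 2 were DE and higher and 3 were DE and lower, where 883 and 1503 of the 14719 genes were. The share of the list was not tested against that of all genes, and its median log2-fold change was -0.0074. ITGB8, the β subunit of integrin αvβ8, which frees TGF-β from its latency peptide, held 581, 415, 314, 578 and 376 normalised counts in control and 13434, 3997, 3185, 6872 and 3957 with IL-1β. Every IL-1β library lay above every control. The log2-fold change of ITGB8 was 3.62 (SE 0.36, adjusted p = 1.36e-04), and in the second batch it was 3.82 (SE 0.56, adjusted p = 0.0431), the one gene of the 6 lists that was DE there without a block. Leaving out any line of the second batch ended that call of ITGB8 (adjusted p 0.0596 to 0.609), while its log2-fold change stayed between 3.39 and 4.29. With both agents ITGB8 was 2.69 above control (SE 0.56, adjusted p = 0.382), higher in 3 of 3 lines.

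THBS1, thrombospondin-1, which activates latent TGF-β, was DE and lower at -2.25 (SE 0.46, adjusted p = 0.00510), with 50211 to 184151 normalised counts in control and 7221 to 36734 with IL-1β. LTBP4, a binding protein that carries latent TGF-β1 and takes part in elastic fibre assembly, was at -2.38 (SE 0.63, adjusted p = 0.0180), and at -2.13 without line 5 (adjusted p = 0.0938). In the second batch THBS1 was at -2.04 (SE 0.82, adjusted p = 0.394) and LTBP4 at -0.86. LTBP3, named after its values were seen because it completes the family, was at -0.66 (SE 0.11, adjusted p = 0.00158), lower in 5 of 5 lines and under the fold threshold.

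**Figure D5:**
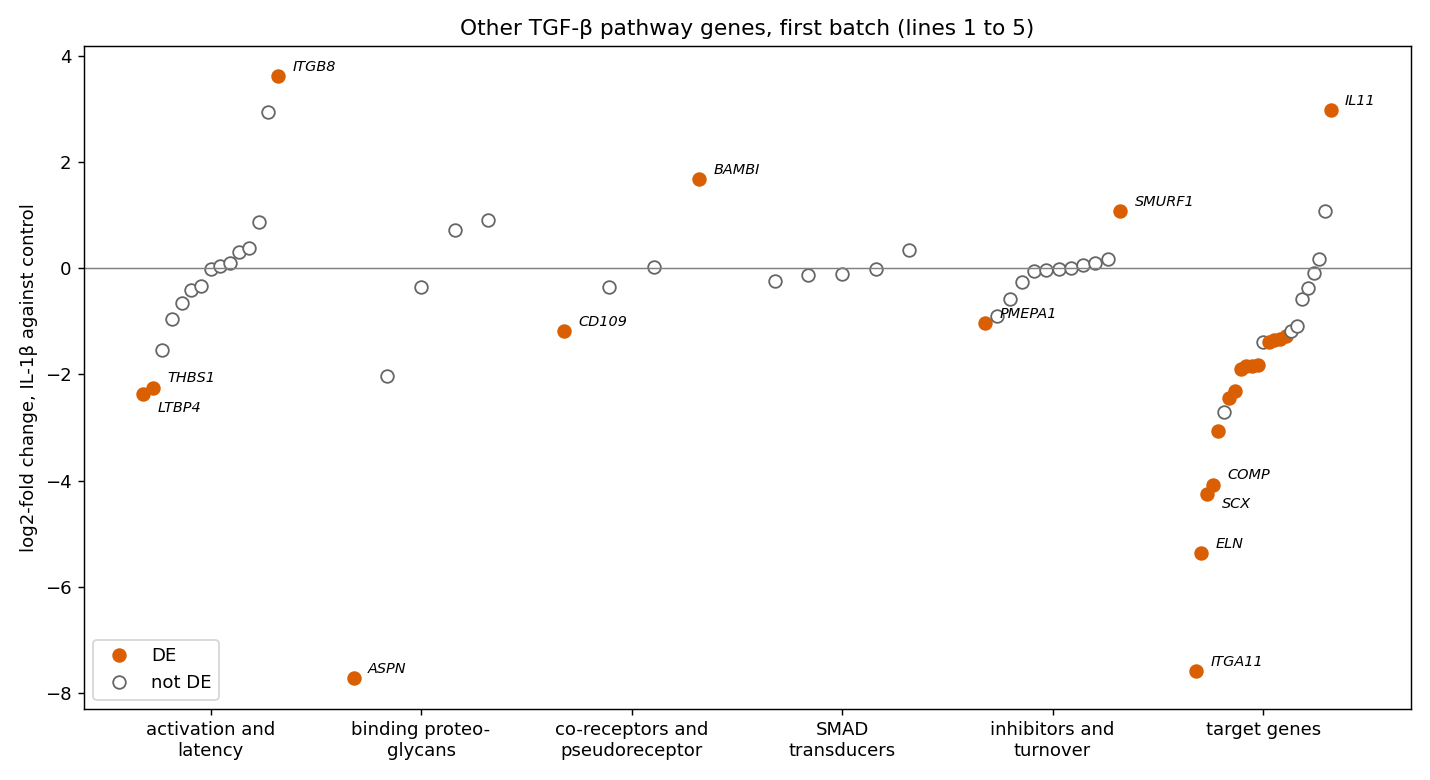
Log2-fold change in the IL-1β libraries of the first batch relative to their controls (vertical axis) for the genes of 6 further TGF-β lists that passed the filter, sorted within each list; filled points are DE and named ones follow the naming rule. Target genes lie mostly below 0, SMAD transducers lie near 0 with 0 DE, and the other lists hold at most 2 DE genes in each direction.

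Among 5 proteoglycans and glycoproteins that bind TGF-β, 1 was DE and lower in the first batch (2 when blocked by line), where 7.90% of all genes were (10.2% with the block). ASPN, asporin, fell from 4147 to 26607 normalised counts in control to 3.67 to 599 with IL-1β, and its log2-fold change was -7.73 (SE 1.08, adjusted p = 7.29e-04). In the second batch it was at -6.54 (SE 3.52, adjusted p = 0.542; with the block 0.0226). Its libraries with IL-1β held few counts in lines 1, 7 and 8, from 2.32 to 5.49.

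Of 4 co-receptors and pseudoreceptors, CD109, a co-receptor that promotes loss of the TGF-β receptors, was DE and lower at -1.19 (SE 0.24, adjusted p = 0.00491), and it was -1.01 in the second batch (adjusted p = 0.145; with the block 0.0452). BAMBI, a pseudoreceptor without a kinase, held 228, 661, 131, 171 and 121 normalised counts in control and 985, 325, 1547, 348 and 810 with IL-1β. It was higher in 4 lines and lower in line 2, at 1.68 (SE 0.55, adjusted p = 0.0431; with the block 0.0668). The call was lost without line 1, 3, 4 or 5, with adjusted p from 0.0727 to 0.173, without a filter on low values (0.0503) and without trend (0.0549). In the second batch BAMBI was at 1.36 with IL-1β (adjusted p = 0.223) and at -1.04 with both agents (adjusted p = 0.822), with 38.8 to 51.0 normalised counts in the latter against 65.9 to 117 in control.

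Of 6 SMAD partners, 5 passed the filter and 0 were DE (1, SMAD2, named after its values were seen, had an unadjusted p under 0.05, at 0.35 with adjusted p = 0.0170 by limma), with a median of -0.12. Of 12 inhibitors and turnover genes, SMURF1, a ubiquitin ligase that SMAD7 brings to the receptor, was DE and higher at 1.07 (SE 0.14, adjusted p = 4.55e-04) and PMEPA1, which is induced by TGF-β and binds SMAD2 and SMAD3, was DE and lower at -1.04 (SE 0.19, adjusted p = 0.00294). Over all genes 4.91% were DE and higher and 7.90% were DE and lower, so these counts lie near the background. Both lie near the fold threshold: SMURF1 was at 0.90 without line 3 and PMEPA1 at -0.93 without line 5. In the second batch SMURF1 was at 1.12 (adjusted p = 0.0823; with the block 0.0254), higher in 3 of 3 lines, and PMEPA1 was not DE in either fit.

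Target genes of TGF-β fell in the first batch more often than they rose. Of 26 genes known to be induced by TGF-β in fibroblasts, 25 were tested (COL3A1 was not analysed here), with a median log2-fold change of -1.40 against -0.0034 for all genes. Over all genes, 7.90% were DE and lower (10.2% when blocked by line) and 4.91% were DE and higher. Of the 25 targets, 15 were DE and lower (18 when blocked by line) and 1 was DE and higher. Among those lower were ITGA11, a collagen receptor subunit (-7.59, SE 1.26, adjusted p = 0.00190), ELN, elastin (-5.37, SE 1.11, adjusted p = 0.00551), SCX, scleraxis (-4.25, SE 0.71, adjusted p = 0.00190), and COMP, a matrix protein of loaded tendon (-4.08, SE 1.01, adjusted p = 0.0132). The call of COMP was lost without line 5 (adjusted p = 0.0699). Some IL-1β libraries held few normalised counts, with ITGA11 at 1.36 and SCX at 9.69 in line 1 and ELN at 4.57 in line 3. The size of those changes depends in part on the 1 added before the log. The gene that rose was IL11, a cytokine of the IL-6 family, at 2.97 (SE 0.71, adjusted p = 0.0111), with 9020 to 114392 normalised counts in control and 91680.4 to 397661 with IL-1β.

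The marker lists were summed in the same libraries. Over the 6 mural and smooth muscle markers, control libraries summed to 11199 to 19346 and IL-1β libraries to 3056 to 4400.1 normalised counts, and over the 5 chondrocyte markers they summed to 7416 to 42962 and 100.0 to 1153, with COL2A1 and COL9A1 under 10 in all. The leukocyte markers summed to 58.3 to 2076 and 311 to 3713, the adipocyte markers with a row to 127 to 3684 and 535 to 4750.1 (PLIN1 under 10 in all), and the synovial lining markers to 88.0 to 11609 and 10.4 to 232 (CLIC5 under 10 in all). Over the tenocyte markers the sums were 1.07e+06 to 1.81e+06 and 427885 to 855985, and SCX, TNC, COL1A1 and COL1A2 stand in this list and in that of the target genes. The 6 endothelial markers summed to under 100 in every library. Their part in the results was not tested.

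The same 25 target genes had a median of -1.02 with IL-1β in the second batch, where 0 were DE (5 had an unadjusted p under 0.05 by limma) and 5 were DE and lower with the block: ITGA11 (-5.64, blocked adjusted p = 0.0214), ELN (-3.84, 0.0339), SCX (-3.18, 0.0223), COMP (-3.69, 0.0228) and TNC, tenascin C, which was named after its values were seen (-2.25, 0.0241). Over all genes of the second batch, 0.341% were DE, and with the block 2.59% were DE and lower. COMP held few normalised counts with IL-1β in line 8, at 5.24. By line the median ratio of the targets was -2.08, -1.52, -1.84, -1.04 and -1.45 in lines 1 to 5 and -1.97, -1.02 and 0.095 in lines 6 to 8. With IL1Ra added it was -0.72, -2.04 and 0.42 against control in lines 6 to 8. Against IL-1β alone it was 1.09, -0.72 and 0.40, with 3, 18 and 9 of the 25 targets lower. In line 7 the targets were thus lower still with IL1Ra added, and in lines 6 and 8 they were higher. Line 8 was above its control in both treatments. Line 8 was also the line with the lowest targets in control and the smallest LTBP2 ratio with IL-1β.

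Before treatment the lines already differed in several members. In the controls of the second batch the SD on the log2 scale was 1.21 for TGFB3, 1.20 for LTBP2, 1.11 for TGFBR3 and 1.04 for TGFBR1, against a median of 0.37 over all genes tested. LTBP1 was the least spread of the members there, at 0.14, above that of 14.9% of genes tested. In the first batch the SD of TGFB3 was again the highest of the members, followed by TGFB1 at 0.58 and LTBP2 at 0.50, against a median of 0.28 over all genes.

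The genes whose log2 values ran most alike with each member over the 10 libraries of the first batch were looked up by Pearson's r, which is a description over libraries that share lines and conditions. For LTBP2 they were AIG1 (r 0.98 in the first batch, 0.62 over the 9 libraries of the second) and EPHB2 (0.98 and 0.82), and for TGFB2 they were LRRC8E (0.97 and 0.76) and HINFP (0.96 and 0.26). TGFB3 ran with ZNF157 (0.98 and 0.12) and GATM (0.94 and 0.91), and SMAD3 with CCDC191 (0.92 and 0.85) and TET2 (0.91 and 0.57). For TGFB1 they were CDC42EP2 (0.98 and 0.25) and IRX5 (0.95 and 0.21), and for LTBP1 EXOC3L4 (0.95 and -0.30) and PARPBP (0.90 and 0.03). TGFBR1 ran with KCTD18 (0.99 and 0.57) and VSIR (0.96 and 0.16), TGFBR2 with RAB5B (0.97 and 0.46) and SLC26A11 (0.95 and 0.37), TGFBR3 with C7H11orf71 (0.96 and 0.23) and DCAF8 (0.94 and 0.79), and SMAD7 with KLHL25 (0.92 and 0.54) and RFC2 (0.92 and 0.62). Of the 20 genes, only GATM, CCDC191 and EPHB2 were above 0.80 in both batches.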

How the data were processed

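Poly(A) RNA of 19 libraries from 8 tenocyte lines was sequenced as paired ends. Per the labels and the methods of the study, Salmon was used by the authors to quantify EquCab3.0 transcripts, tximport to obtain gene counts, and DESeq2 1.36 in R 4.2.1 to normalise each batch. The signal values deposited by the authors are these normalised counts, in 1 table per batch; whole reads could not be recovered, so no count model was fitted. Whether the scaling includes transcript lengths is not given in the sources used here; the smallest values above 0 differ between genes within a library, so they need not be counts divided by a single factor per library.

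Computed here: log2(normalised count + 1), a filter that kept genes reaching 10 normalised counts in 5 libraries or more (first batch) or 3 or more (second batch), limma 3.58.1 with trend in R 4.3.3 (no block, as no block is stated in the study's methods), and Benjamini-Hochberg adjustment over the 14719 or 16705 genes tested. The fits were tested on simulated data. Members and lists were chosen with earlier results of these data known, so no p was adjusted over a list alone, and the batch difference was adjusted over all 14478 genes rather than the 10 members. CCN2 was read under its older symbol CTGF. Named from a list were its DE genes of the first batch, up to 4 per direction, and for each member the 2 genes most alike. The titles in the labels name the line of each library, so lines pair the libraries: deviations from condition means correlated at 0.35 to 0.58 within lines (5 pairs) and -0.36 to 0.29 between lines (20 pairs) in the first batch, and at 0.54 to 0.79 (9 pairs) and -0.62 to 0.25 (18 pairs) in the second. Alternatives were other pseudocounts, filters, scalings, no trend, array weights, the line as a block, adjusted p alone, 2 conditions only and leaving out each line. No sequences or coordinates were used.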

Additional observations from a re-analysis of the deposited data

Results flagged for a closer look

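Of 30 groups of 5 values examined in the first batch, 2 held a value far from the other 4. The groups were, for each member, its control libraries, its IL-1β libraries and its ratios within lines. Chance gives about 1 in 20 groups, so 2 of 30 is near that rate, and the groups share libraries. Both values came from the IL-1β library of line 3. TGFB2 was lowest there, at 9.29 on the log2 scale (624 normalised counts against 1637 to 2213 in the other lines), with a gap of 0.76 of the range of the group. LTBP1 was highest there, at 14.42 (21978 against 11015 to 12310.3), with a gap of 0.84 of the range. The limit for 5 samples is 0.71. Without line 3, TGFB2 met both thresholds (log2-fold change 1.03, adjusted p = 0.00365 by limma), and LTBP1 was at -0.53 (adjusted p = 0.0300), under the fold threshold. Line 3 was singled out by these same values, so leaving it out is not an independent test.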

How the results depend on the processing

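In the first batch the 2 DE members stayed 2 under other pseudocounts, filters, scalings and fits, and numbered 1 to 3 when each line was left out (1 without line 1 or line 5, where TGFB1 was lost; 3 without line 3, where TGFB2 was added). In the second batch, 2 members were DE with IL-1β with the tenocyte line as a replicate block (TGFB2 and LTBP2) and 2 with array weights (the same genes), and 2 were DE with IL-1β plus IL1Ra against control with array weights (TGFB1 at -1.26 and LTBP2 at -1.39), where 0 were in the reported fit. Of the 16705 genes tested, 865 were DE with IL-1β with the block and 3334 with array weights. With both agents against control, 1884 were DE with array weights. Array weights in the second batch ran from 0.20 to 9.22 and their estimation stopped before converging. The block changed no call of the members or of the genes named from the lists beyond those given beside the results.

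Counts of DE genes over all genes moved by more than 1.5 times as follows. In the first batch, 1885 became 4078 by adjusted p alone and 1251 without line 5. In the second batch with IL-1β, 57 became 34 without trend, 34 with only the 2 conditions compared, 3334 with array weights, 865 with the block, and 339, 0 and 0 without lines 6, 7 and 8. With both agents against control, 2 became 1 with equal-sum scaling, 1884 with array weights, 42 with the block, 0 with 2 conditions, and 61, 0 and 0 without lines 6, 7 and 8. Against IL-1β alone, 0 became 137 with array weights, 1 with the block and 10 without line 6. The first-batch call of PMEPA1 was lost with array weights (-0.94, under the fold threshold). The second-batch call of ITGB8 was lost with equal-sum scaling (adjusted p = 0.0525), without trend (0.0664), with 2 conditions (0.0744) and without any line (0.0596 to 0.609).

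The following values changed sign. With IL-1β in the second batch, TGFBR1 was at -0.14 with equal-sum scaling, and LTBP1 at 0.43 and LTBP4 at 0.49 with array weights. Leaving out each line gave ranges of -0.52 to 0.49 for TGFBR1, -0.37 to 0.14 for LTBP1, -0.73 to 1.00 for TGFBR3 and -0.31 to 0.0053 for TGFB1. With both agents against control, TGFBR1 was at 0.083 with array weights and SMAD3 ranged from -0.33 to 0.18. Against IL-1β alone, LTBP4 was at 0.032 with equal-sum scaling and ELN at -0.22 with array weights, and the ranges were -0.73 to 0.40 for LTBP4, -0.13 to 0.89 for ELN, -0.43 to 1.05 for SCX, -0.15 to 0.88 for TGFBR3, -0.51 to 0.054 for TGFBR1 and -0.44 to 0.045 for LTBP1. The difference between batches ranged from -0.40 to 0.59 for TGFB3, -0.59 to 1.13 for TGFBR3, -0.061 to 0.13 for SMAD7, -0.0028 to 0.69 for SMAD3, -0.63 to 0.38 for TGFBR1, -0.10 to 0.23 for TGFBR2 and -0.49 to 0.011 for LTBP1. Apart from the values that leave out a line, the cause was not tested. Sums of counts were lower in the second batch, and the part of depth in its fewer calls was not tested.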
